A study of Homo sapiens with 17 samples.

Results

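The response to DZH_2 was compared between MDA-MB-231, a human triple-negative breast cancer line, and MCF10, the name the sample titles give to a human mammary epithelial line. The measure is a difference of differences, called the line difference here: the change under DZH_2 in MDA-MB-231 minus the change under DZH_2 in MCF10. It used 11 of the 17 arrays of the study. They were 4 MDA-MB-231 arrays under DZH_2 (2 at IC20 and 2 at IC50), 3 MDA-MB-231 control arrays (2 DMSO and 1 Untreated), 2 MCF10 arrays under DZH_2 (1 IC20 and 1 IC50), and 2 MCF10 control arrays (1 DMSO and 1 Untreated). Cells were seeded for 24 h, and those given DZH_2 or DMSO were then treated for 48 h. No treatment time is given for the Untreated arrays. IC20 and IC50 name the doses that inhibit by 20% and 50%, but the labels name no concentration, so equal names need not mean equal concentrations in the lines. The compound is known here only by its code name. Total RNA was hybridised to whole-transcript arrays, and the values are log2 expression of 17687 genes, so a difference of 1 is a 2-fold change.

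Most of the results concern 4 well-known gene programmes. Cells make cholesterol from acetyl-CoA through the mevalonate pathway, and the genes of that pathway are switched on by SREBP2 when sterols run low in the endoplasmic reticulum, where INSIG1 holds the SREBPs back when sterols are plentiful. SREBP1 acts in the same way on fatty acid synthesis and desaturation. LXR responds to oxysterols and drives the cholesterol exporters ABCA1 and ABCG1, so that export genes tend to be high when sterols are plentiful. The aryl hydrocarbon receptor, AhR, binds planar aromatic ligands and induces CYP1A1 and CYP1B1. E2F factors drive the genes for DNA replication at the entry to S phase, and FOXM1 and MYBL2 drive the genes for mitosis.

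Several properties of the arrays bear on every comparison of the lines. The labels disagree about 4 arrays, titled MCF10 but given as MDA-MB-231 under cell line, and the titles were followed. The MCF10 arrays clearly held other cells than the MDA-MB-231 arrays, with S100A2 at 14.85 in MCF10 controls and 6.68 in MDA-MB-231 controls, but part of the epithelial markers was missing. CDH1, which encodes E-cadherin, stood at 4.07 in MCF10 controls, EPCAM at 5.24 and the basal keratin KRT14 at 4.76, all below 6.103, the 75th percentile of 612 negative control probe sets, while KRT8 stood at 14.18. Of 15 measured general epithelial markers, 9 lay below 6.103 in MCF10 controls, as did 2 of 9 mammary basal markers. The fibroblast-associated genes DCN, FBLN1 and MMP2 stood at 10.45, 13.65 and 13.79. They are high members of a list of 14 measured fibroblast markers, of which 4 lay below 6.103 and whose median was 7.88. MCF10 is therefore used below only as the name in the titles. Replicates are not stated to be separate cultures, so p-values measure the spread between arrays of an arm, which may be technical. Doses were pooled, and DMSO with Untreated, so that spread also holds any difference between them. Each labelled MCF10 group was 1 array, so the MCF10 part of the spread lies wholly between differently labelled arrays. The MCF10 IC20 array stood apart, with a correlation across genes of 0.955 with the MCF10 IC50 array against 0.976 between the MCF10 controls and 0.981 to 0.994 within the MDA-MB-231 arms. Values of the MCF10 arrays were also narrower, with interquartile ranges of 3.34 to 3.62 against 4.21 to 4.65 in MDA-MB-231. Whether the lines were normalized together is not known.

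The line difference passed the threshold, a Benjamini-Hochberg adjusted p under 0.05 in limma, in 1281 of 17687 genes (7.24%). It lay above 0 in 627 genes (3.54%) and below 0 in 654 (3.7%), where above 0 means a higher change in MDA-MB-231. An unadjusted p under 0.05 was found in 4018 genes (22.7%). DZH_2 changed 996 genes in MDA-MB-231 (5.63%; 388 rose, 2.19%, and 608 fell, 3.44%) and 2192 genes in MCF10 (12.4%; 1011 rose, 5.72%, and 1181 fell, 6.68%). The same direction was called in both lines for 208 genes (1.18% of genes tested), of which 113 rose (0.639%) and 95 fell (0.537%). These made up 20.9% of the MDA-MB-231 calls and 9.49% of the MCF10 calls. Opposite directions were called for 38 genes (0.215%). Across all 17687 genes the changes in the lines, which share no array, had a Pearson correlation of 0.17, given as a description since genes are not independent. For 720 of the 996 MDA-MB-231 calls and 1267 of the 2192 MCF10 calls, shared genes included, the line difference did not pass.

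**Figure D1:**
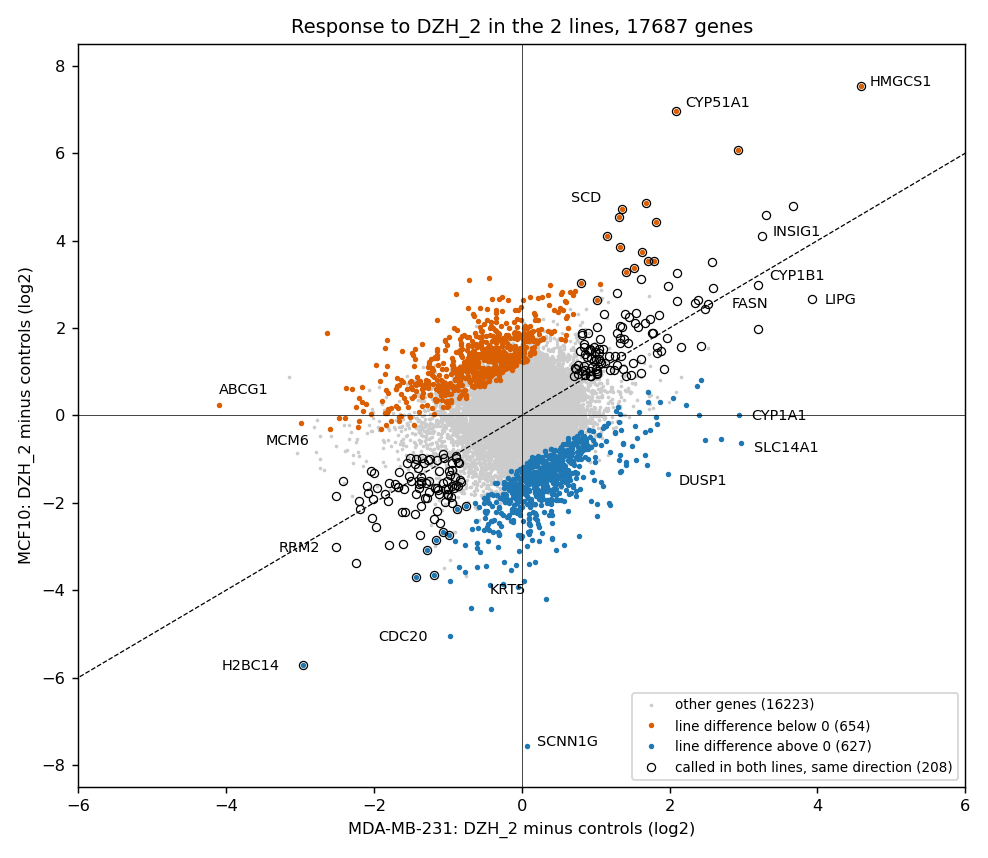
Change under DZH_2 in MDA-MB-231 (x axis, log2) against the change in MCF10 (y axis, log2), 1 point per gene for 17687 genes; the axes differ in scale and the dashed line marks equal changes. Orange and blue points are the 654 and 627 genes with a line difference below and above 0, and rings mark the 208 genes called in the same direction in both lines.

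The counts moved when single arrays were left out. Calls of the line difference numbered 496 without MDA-MB-231 DMSO replicate 1, 711 without the MCF10 Untreated array, 720 without MDA-MB-231 DMSO replicate 2, 753 without the MCF10 DMSO array, 830 without the MDA-MB-231 Untreated array and 2515 without the MCF10 IC50 array. The MDA-MB-231 count was 306 without its DMSO replicate 1, 467 without its Untreated array, 556 without its DMSO replicate 2, 575 without its IC50 replicate 2, and 1514 without either MCF10 array under DZH_2. The MCF10 count was 1205 without its DMSO array and 1175 without its Untreated array. The shared count was 95 without MDA-MB-231 DMSO replicate 1, 109 without the MDA-MB-231 Untreated array, 135 without the MCF10 DMSO array and 138 without MDA-MB-231 IC50 replicate 2. Without the MCF10 IC20 array, which stood apart, there were 1096 line differences, 1667 MCF10 calls and 298 shared genes. Centring each array on its median turned the split of the line difference to 840 above and 516 below 0, because it shifted the median line difference of all genes from 0.00 to 0.13. Under that centring the MCF10 split was 775 rises and 1393 falls. Under quantile normalization the MDA-MB-231 split was 415 rises and 414 falls. In all, 206 line differences (101 above and 105 below 0) and 45 shared genes were called in each of 24 fits over all genes, which left out each array in turn or changed the normalization, controls, doses or variance model. Such genes are called stable below.

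Genes of sterol synthesis rose in both lines, and many rose further in MCF10. Of 19 measured genes of the mevalonate and later sterol pathway, 15 rose in MDA-MB-231 (2.19% of all genes rose), 16 rose in MCF10 (5.72%) and 14 rose in both (0.639%). The exception in direction was PMVK, a mevalonate pathway kinase, which fell by 1.02 in MCF10 (adjusted p = 0.027, limma). That fall was not called with array weights or without any 1 of the MCF10 IC50, DMSO and Untreated arrays. The line difference was called in 10 of the 19, all below 0 (3.7% of all genes), with a median over the 19 genes of -1.73 beside 0.00 over all genes. The median changes were 1.68 in MDA-MB-231 and 3.53 in MCF10. Leaving out any 1 array gave 10 or 11 such genes, and the other alternatives gave 8 to 13.

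HMGCS1, which makes HMG-CoA at the head of the pathway, read 12.44, 12.56, 12.67 and 12.92 in the MDA-MB-231 arrays under DZH_2 and 8.09, 7.97 and 8.12 in the controls. In MCF10 it read 13.33 and 13.79 under DZH_2 and 5.44 and 6.59 in the controls. Treated and control arrays were far apart in each line, and the MCF10 controls were the lowest of all. The rise was 4.59 ± 0.26 (SE, limma; 24.0-fold) in MDA-MB-231 and 7.54 ± 0.34 (187-fold) in MCF10, with a line difference of -2.96 ± 0.43 (adjusted p = 0.0021). The mean of the MCF10 controls, 6.01, lay at the level of the negative controls, so the size of that rise depends on the array's floor. CYP51A1, the demethylase that acts on lanosterol, showed the most negative line difference of any gene named here. It read 11.71, 11.80, 11.55 and 12.29 in MDA-MB-231 under DZH_2, against 9.70, 10.11 and 9.44 in the controls. The MCF10 values were 12.41 and 12.52 under DZH_2 and 5.72 and 5.29 in the controls. Its treated values were close together in the lines while its control values were not. It rose by 2.09 in MDA-MB-231 and 6.96 in MCF10, a line difference of -4.88 ± 0.39 (adjusted p = 4.1e-05, limma), again from controls at the negative control level.

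The 10 sterol genes with a line difference fell into 2 patterns of basal level. The basal difference, MCF10 controls minus MDA-MB-231 controls, uses the same control arrays as the line difference, so the values stand side by side with no test of one against the other. HMGCS1, ACAT2, IDI1, CYP51A1 and SC5D started lower in MCF10, by 2.05, 2.37, 3.36, 4.25 and 2.21 on the log2 scale. Under DZH_2 their MCF10 means were 0.91, 0.85, -0.20, 0.63 and 0.99 relative to MDA-MB-231, which is to say near the MDA-MB-231 levels. IDI1, the isopentenyl diphosphate isomerase, is the plainest case, with control means of 10.11 in MDA-MB-231 and 6.75 in MCF10 and treated means of 13.03 and 12.83. MVD, FDPS, SQLE, LSS and EBP did not start lower in MCF10, with basal differences of 0.55, 0.99, 1.20, 0.46 and 2.28. Under DZH_2 their MCF10 means exceeded those of MDA-MB-231 by 3.16, 3.10, 2.93, 2.29 and 4.30. FDPS, which makes farnesyl diphosphate, read 13.18, 13.02, 13.02 and 13.09 in treated MDA-MB-231 arrays and 11.65, 10.996 and 11.70 in the controls. The MCF10 arrays gave 16.38 and 15.98 under DZH_2 and 12.48 and 12.39 in the controls. All MCF10 control values of FDPS exceeded the MDA-MB-231 controls, and its rise was still the larger in MCF10, 3.74 against 1.63 (line difference -2.11 ± 0.36, adjusted p = 0.0049, limma). A lower starting level in MCF10 thus accompanied the larger rise for some of these genes and not for others.

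**Figure D2:**
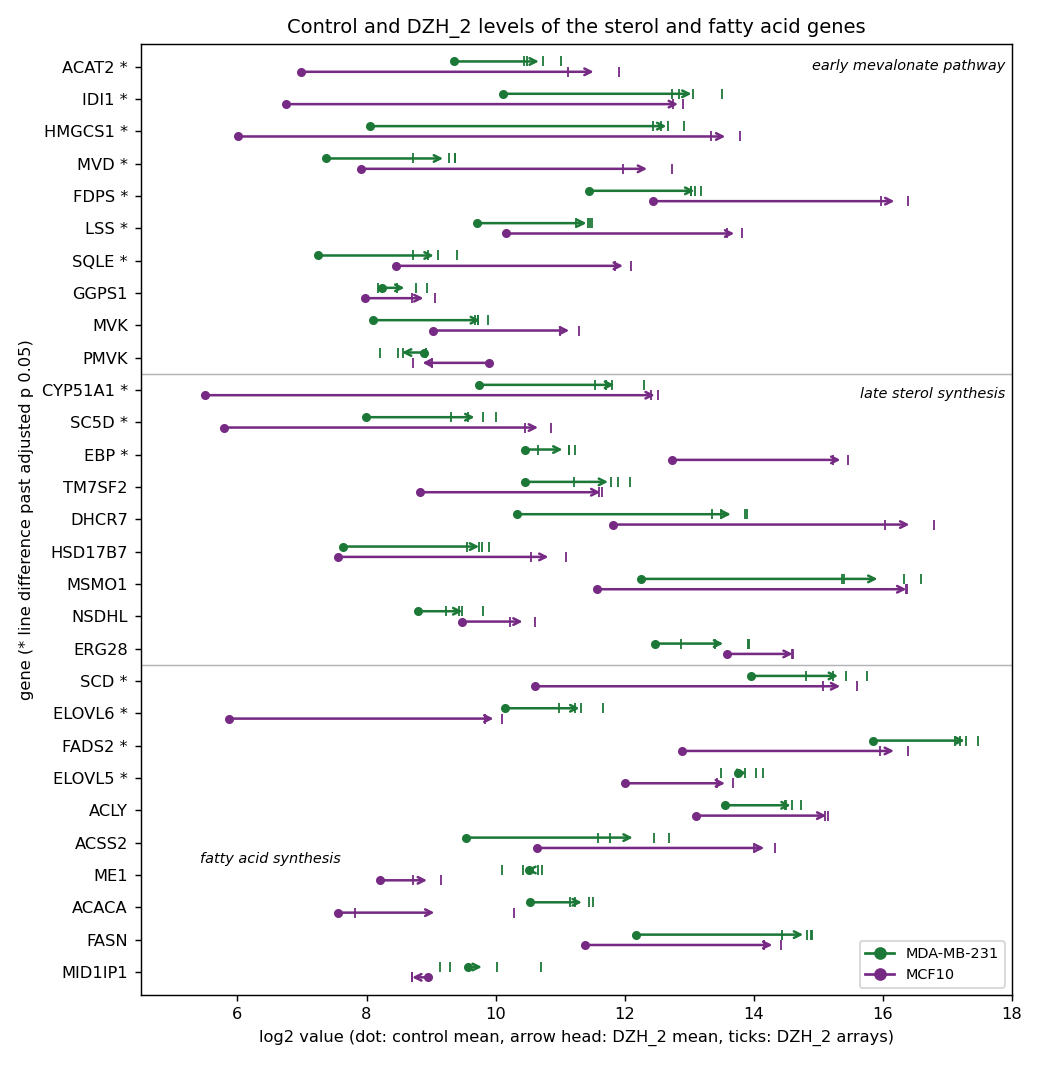
Control and DZH_2 levels (x axis, mean log2 expression) of the sterol and fatty acid synthesis genes (y axis) in each line, with a dot at the control mean, an arrow head at the DZH_2 mean and ticks for the DZH_2 arrays. CYP51A1 and IDI1 show MCF10 controls far to the left and treated levels close together, while FDPS and EBP show MCF10 to the right of MDA-MB-231 both before and after treatment.

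INSIG1, DHCR7 and MSMO1 rose by amounts that could not be told apart between the lines. INSIG1, itself a target of the SREBPs, read 12.19, 12.02, 12.41 and 12.58 under DZH_2 in MDA-MB-231 against 8.92, 9.52 and 8.70 in controls. The MCF10 values were 12.90 and 12.61 against 8.76 and 8.56. The values of the lines lay close to each other in both conditions, with rises of 3.25 and 4.10 and a line difference of -0.85 ± 0.39 (adjusted p = 0.21, limma). DHCR7, the last reductase of cholesterol synthesis, rose by 3.31 and 4.58 (line difference -1.28 ± 0.38, adjusted p = 0.058), and MSMO1, a sterol C4-methyl oxidase, rose by 3.67 and 4.80 (line difference -1.13 ± 0.54, adjusted p = 0.23). A p that misses the threshold does not show that these rises were equal. TMEM97, a sterol-regulated membrane protein, read 10.33 and 10.51 under DZH_2 in MCF10 and 8.28 and 7.89 in its controls, and in MDA-MB-231 all arrays lay between 10.29 and 10.90. It rose by 2.33 in MCF10 and its change in MDA-MB-231 was 0.16 (line difference -2.17 ± 0.35, adjusted p = 0.0036, limma).

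The promoters of HMGCS1 and SC5D, which differed between the lines, and of INSIG1, for which no difference was called, are shown because SREBPs act on such promoters together with NF-Y, the factor that binds CCAAT. Each runs 250 bases upstream to 50 downstream of the RefSeq start site (GRCh38.p14), 5′ to 3′ on the gene's strand. HMGCS1 lies at chr5:43313363-43313662 (minus strand), SC5D at chr11:121292521-121292820 (plus strand) and INSIG1 at chr7:155297628-155297927 (plus strand). Capitals mark CCAAT and the E-box CACGTG, searched on both strands, so CCAAT also appears as its complement.
HMGCS1: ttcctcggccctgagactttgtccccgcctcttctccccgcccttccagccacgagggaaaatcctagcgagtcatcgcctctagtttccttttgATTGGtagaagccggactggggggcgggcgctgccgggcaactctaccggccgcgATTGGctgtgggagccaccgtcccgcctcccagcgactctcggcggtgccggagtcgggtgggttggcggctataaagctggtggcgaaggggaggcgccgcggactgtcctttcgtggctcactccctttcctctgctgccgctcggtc
SC5D: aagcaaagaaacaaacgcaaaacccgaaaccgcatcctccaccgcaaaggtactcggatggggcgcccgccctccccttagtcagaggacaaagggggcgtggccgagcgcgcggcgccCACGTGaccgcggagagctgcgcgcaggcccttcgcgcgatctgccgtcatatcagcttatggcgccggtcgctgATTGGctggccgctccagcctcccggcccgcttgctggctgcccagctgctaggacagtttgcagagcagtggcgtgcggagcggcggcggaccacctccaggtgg
INSIG1: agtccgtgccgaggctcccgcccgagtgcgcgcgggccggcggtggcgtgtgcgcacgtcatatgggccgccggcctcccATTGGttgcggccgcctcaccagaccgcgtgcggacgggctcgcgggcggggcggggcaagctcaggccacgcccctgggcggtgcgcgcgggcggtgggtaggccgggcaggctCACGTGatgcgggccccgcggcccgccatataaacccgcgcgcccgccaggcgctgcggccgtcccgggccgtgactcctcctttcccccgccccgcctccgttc
In HMGCS1, CCAAT starts at -155 and -100, counted to the first printed base of the match from the start site at 0. In SC5D, CCAAT starts at -56 and CACGTG at -131, and in INSIG1 they start at -170 and -55. CCAAT was found in 19 of 27 promoters of sterol and fatty acid synthesis genes and INSIG1 (70.4%), against 35.7% of 27305 RefSeq promoters of the same length. CACGTG was found in 4 of the 27 (14.8%) against 7.43% of all. Among genes with a called line difference, CYP51A1, IDI1, ELOVL6 and FADS2 had no CCAAT. HMGCS1, SC5D, MVD, FDPS, LSS, EBP, SCD and ELOVL5 had it. A match is a description of letters and not a site of binding.

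Fatty acid genes rose in both lines too, and some rose further in MCF10. Of 10 measured genes of fatty acid synthesis, elongation and desaturation, 6 rose in MDA-MB-231 (2.19% of all genes rose), 7 rose in MCF10 (5.72%), 6 rose in both (0.639%) and none fell. It differed between the lines in 4 of the 10, SCD, ELOVL6, FADS2 and ELOVL5, all below 0 (3.7% of all genes). ELOVL5 was not called without any 1 of MDA-MB-231 IC50 replicate 2, DMSO replicate 1 and Untreated and MCF10 IC20, DMSO and Untreated. SCD, the stearoyl-CoA desaturase, read 15.23, 15.75, 14.81 and 15.43 in MDA-MB-231 under DZH_2 and 13.87, 13.94 and 14.04 in controls. MCF10 values were 15.07 and 15.60 under DZH_2 and 10.74 and 10.48 in controls. The treated values of the lines overlapped and the control values did not. SCD rose by 1.35 in MDA-MB-231 and 4.73 in MCF10 (line difference -3.37 ± 0.39, adjusted p = 7e-04, limma). ELOVL6, a fatty acid elongase, had a line difference of -2.94 ± 0.36 (adjusted p = 9.1e-04) from MCF10 controls of 5.70 and 6.04, at the negative control level. FASN, the fatty acid synthase, behaved otherwise. It read 14.89, 14.44, 14.91 and 14.82 against 12.04, 12.11 and 12.37 in MDA-MB-231, and 14.16 and 14.41 against 11.38 and 11.38 in MCF10. Its rises of 2.59 and 2.91 gave a line difference of -0.31 ± 0.33 (adjusted p = 0.64, limma).

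Of 9 measured LXR targets, 3 fell in MDA-MB-231 (ABCG1, ABCA1 and SREBF1; 3.44% of all genes fell) and 1 rose (SCD; 2.19%), while in MCF10 1 fell (LPCAT3; 6.68%) and 1 rose (SCD; 5.72%). ABCG1, a cholesterol exporter, read 6.90, 7.29, 6.40 and 6.77 under DZH_2 against 10.90, 10.82 and 11.09 in MDA-MB-231 controls. On the MCF10 arrays it read 5.87 and 6.16 under DZH_2 and 5.34 and 6.20 in the controls. The MDA-MB-231 groups were far apart, while the MCF10 groups overlapped at the level of the negative controls, where a fall could not be measured. ABCG1 fell by 4.10 in MDA-MB-231 (17.1-fold), and its line difference of -4.35 ± 0.42 (adjusted p = 1.5e-04, limma) was stable. ABCA1, the other sterol exporter of the list, fell by 2.21 in MDA-MB-231 from controls of 7.82, 7.83 and 7.54, and its MCF10 controls of 4.98 and 4.47 were at that floor too (line difference -1.95 ± 0.43, adjusted p = 0.018). Its line difference was not called without MDA-MB-231 DMSO replicate 1 or without the MCF10 Untreated array. SREBF1, the SREBP1 gene and also an LXR target, was well expressed in both lines. It fell by 1.37 in MDA-MB-231 (adjusted p = 0.0013), and in MCF10 its change was -0.59 (adjusted p = 0.16), with a line difference of -0.78 ± 0.33 (adjusted p = 0.17, limma). LPCAT3, a phospholipid-remodelling enzyme, fell by 1.92 in MCF10 with a change of -0.26 in MDA-MB-231 (line difference 1.66, adjusted p = 0.029), and that difference was not called without any 1 of MDA-MB-231 IC50 replicate 2 and DMSO replicates 1 and 2 and MCF10 IC20, DMSO and Untreated. SCD, also on this list, is given above. Over the list, the line difference was above 0 in 1 (3.54% of all genes) and below 0 in 3 (3.7%).

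The classical AhR target CYP1A1, a monooxygenase of aromatic compounds, rose in MDA-MB-231 and stayed at the floor in MCF10. It read 9.97, 8.95, 9.45 and 9.22 under DZH_2 against 6.31, 6.17 and 6.91 in MDA-MB-231 controls. In MCF10 it read 6.01 and 5.93 under DZH_2 and 5.83 and 6.07 in the controls. The MDA-MB-231 groups did not overlap and the MCF10 groups did. The rise in MDA-MB-231 was 2.93 ± 0.26 (7.64-fold), the change in MCF10 was 0.01 ± 0.34, and the line difference was 2.92 ± 0.43 (adjusted p = 0.0022, limma) and stable. CYP1B1, a related enzyme, rose in both lines. It read 9.82, 8.80, 9.31 and 9.02 against 5.99, 6.09 and 6.03 in MDA-MB-231, and 10.32 and 9.95 against 6.56 and 7.74 in MCF10. The rises of 3.20 and 2.98 left a line difference of 0.22 ± 0.48 (adjusted p = 0.84, limma). So 1 of these CYP1 genes differed between the lines and for the other no difference was detected.

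Among the other AhR genes, TIPARP, a feedback inhibitor of the receptor, rose by 1.73 in MDA-MB-231 and its change in MCF10 was 0.25 (line difference 1.47 ± 0.50, adjusted p = 0.088, limma). NQO1, a quinone reductase, rose by 1.30 in MDA-MB-231 from 11.10 and stood at 14.87 in MCF10 controls, where its change was 0.29 (adjusted p of the line difference 0.14). ALDH3A1, an aldehyde dehydrogenase, read 8.26 and 9.10 in MCF10 controls and 6.45 and 6.86 under DZH_2, and stood near the negative controls in MDA-MB-231. It fell by 2.02 in MCF10 (line difference 2.12, adjusted p = 0.014), a line difference not called without the MCF10 Untreated array. Of 10 measured AhR genes, 4 rose in MDA-MB-231 (CYP1A1, CYP1B1, TIPARP and NQO1), where 2.19% of all genes rose. In MCF10 1 rose (CYP1B1, 5.72% of all genes rose) and 1 fell (ALDH3A1, 6.68% of all genes fell). The receptor gene AHR itself stood at a mean of 14.56 in MDA-MB-231 controls and 8.93 in MCF10 controls, and its changes under DZH_2 were -0.07 and 0.18.

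**Figure D3:**
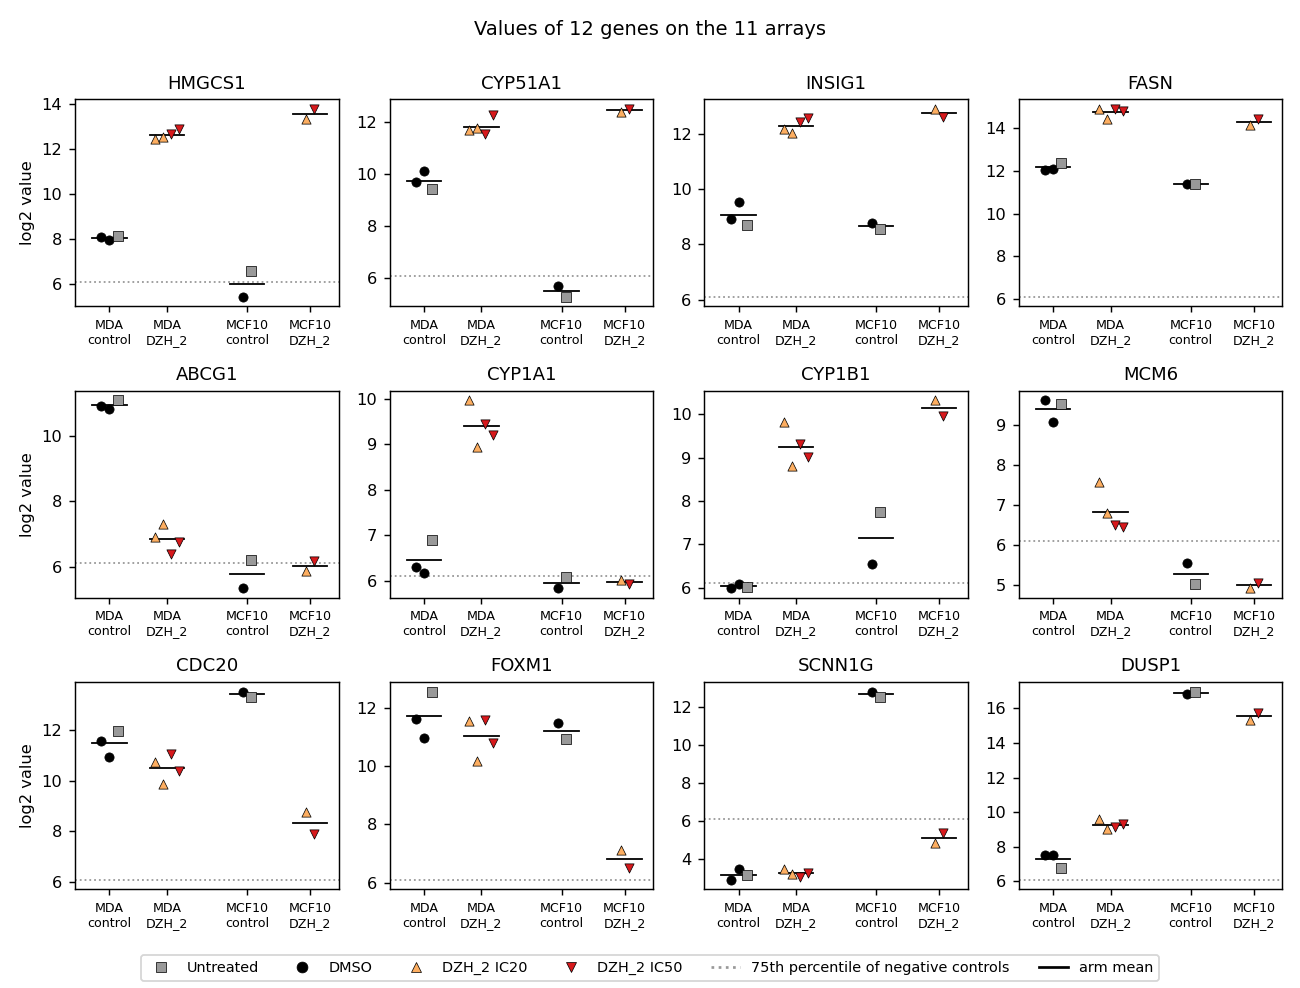
Log2 expression (y axis) on each of the 11 arrays, 1 panel per gene, with points grouped by line and by control or DZH_2 arm (x axis) and bars at the arm means. CYP1A1 rises in MDA-MB-231 and stays near the negative controls in MCF10, ABCG1 falls in MDA-MB-231 from a level MCF10 does not have, and SCNN1G falls in MCF10 from a level MDA-MB-231 does not have.

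Mitotic genes fell in both lines, and a few of them fell much further in MCF10. Of 30 measured genes of G2 phase and mitosis, 15 fell in MDA-MB-231 (3.44% of all genes fell), 16 fell in MCF10 (6.68%) and 6 fell in both (0.537%), while none rose. The line difference was above 0 in 5, CDC20, CDC25C, CENPA, UBE2C and FOXM1 (3.54% of all genes), and below 0 in 1, PRC1 (3.7%). The median line difference of the 30 genes was -0.32, but 0.03 under quantile normalization, 0.62 with the DMSO arrays alone, 0.29 with the IC50 arrays alone, 0.08 without the MCF10 IC20 array and 0.46 without the MCF10 Untreated array, so the list as a whole had no settled direction. The MDA-MB-231 count of falls was 5 without its DMSO replicate 1 and 6 without its Untreated array, and the MCF10 count was 9 without its DMSO array. The shared falls were 1 without the MCF10 DMSO array. The split of the line difference turned to 4 above and 6 below 0 without the MCF10 IC50 array, and to 4 and 5 with the IC20 arrays alone.

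CDC20, the activator of the anaphase-promoting complex, read 10.72, 9.86, 11.05 and 10.38 in MDA-MB-231 under DZH_2 and 11.55, 10.92 and 11.95 in controls. On the MCF10 arrays it read 8.77 and 7.91 under DZH_2 and 13.49 and 13.28 in controls. The MDA-MB-231 groups overlapped, while the MCF10 controls were the highest and the treated MCF10 arrays the lowest of all 11. CDC20 fell by 5.05 ± 0.41 in MCF10 (33.1-fold) and its change in MDA-MB-231 was -0.97 ± 0.32 (adjusted p = 0.096), giving a line difference of 4.08 ± 0.52 (adjusted p = 0.0011, limma). FOXM1, the mitotic transcription factor, started alike, with control means of 11.72 and 11.21. It fell by 4.40 in MCF10 to 7.11 and 6.52, and its change in MDA-MB-231 was -0.69, with treated arrays of 11.55, 10.18, 11.58 and 10.82 (line difference 3.71 ± 0.64, adjusted p = 0.0052). UBE2C, the ubiquitin-conjugating partner of that complex, fell by 3.47 in MCF10, and its change in MDA-MB-231 was -0.85 (line difference 2.63 ± 0.39, adjusted p = 0.0024). These 3 line differences were stable. For FOXM1 and UBE2C the basal difference did not pass the test (-0.51 and -0.25), so their line differences did not go with a called difference in starting level.

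CENPA, the centromeric histone, and CDC25C, a phosphatase that opens mitosis, had line differences of 1.81 (adjusted p = 0.010) and 2.01 (adjusted p = 0.031, limma). That of CDC25C was not called without any 1 of MDA-MB-231 IC50 replicates 1 and 2 and DMSO replicates 1 and 2 and MCF10 IC50 and DMSO. PRC1, a spindle midzone protein, fell by 1.49 in MDA-MB-231, and its change in MCF10 was 0.60 (adjusted p = 0.41), from a control mean of 11.71 in MDA-MB-231 and 7.20 in MCF10 (line difference -2.09, adjusted p = 0.033), a difference not called without any 1 of MDA-MB-231 IC20 replicate 2, IC50 replicate 2, DMSO replicate 1 and Untreated and MCF10 IC20, DMSO and Untreated. NDC80, a kinetochore protein, fell by 2.19 in MDA-MB-231 and 2.15 in MCF10, with no line difference detected (line difference -0.05 ± 0.42, adjusted p = 0.97). The MCF10 means of CENPA, CDC25C and NDC80 under DZH_2 were 5.28, 5.25 and 4.77, below the negative control level, which limits the size of their falls there.

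The promoters of CDC20 and CENPA are shown because both genes had a positive line difference and both carry letters typical of mitotic genes. These are TTTGAA (the core of the cell cycle homology region) and CCAAT, which lie close together in CDC20 and far apart in CENPA. The promoters run over the same window as those above, CDC20 at chr1:43358731-43359030 and CENPA at chr2:26785806-26786105, both on the plus strand. Capitals mark TTTGAA and CCAAT, and also the E2F motif TTTCCCGC, on either strand.
CDC20: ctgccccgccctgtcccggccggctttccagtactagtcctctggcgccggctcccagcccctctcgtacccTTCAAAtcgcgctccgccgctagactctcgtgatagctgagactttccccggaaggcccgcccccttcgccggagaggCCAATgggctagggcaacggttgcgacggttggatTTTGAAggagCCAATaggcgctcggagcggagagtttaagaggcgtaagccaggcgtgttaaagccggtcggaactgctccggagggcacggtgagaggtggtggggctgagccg
CENPA: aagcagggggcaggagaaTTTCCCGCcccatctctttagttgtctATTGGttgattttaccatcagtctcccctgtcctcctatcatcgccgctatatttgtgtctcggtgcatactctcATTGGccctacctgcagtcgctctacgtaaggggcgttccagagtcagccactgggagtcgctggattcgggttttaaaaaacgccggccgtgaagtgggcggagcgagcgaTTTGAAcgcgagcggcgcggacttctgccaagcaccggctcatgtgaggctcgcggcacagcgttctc
In CDC20, TTTGAA starts at -178 and -65 and CCAAT at -100 and -55. In CENPA, TTTGAA starts at -18, CCAAT at -205 and -130, and TTTCCCGC at -232. TTTGAA was found in 17 of 24 mitotic promoters (70.8%), in 1 of 29 replication promoters (3.45%) and in 15.4% of all 27305. CCAAT was found in 20 of the 24 (83.3%) and in 17 of the 29 (58.6%). The E2F motif TTTCCCGC was found in 10 of the 29 replication promoters (34.5%), in 1 of the 24 mitotic promoters (4.17%) and in 1.66% of all. Counts of letters were taken over every listed gene with a promoter entry, whether or not its line difference passed. CDC25C, also with a positive line difference, had neither TTTGAA nor CCAAT, and PRC1, with a negative one, had both.

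Genes of S-phase entry and DNA replication fell broadly in MDA-MB-231. Of 33 measured, 28 fell in MDA-MB-231 (3.44% of all genes fell), 6 fell in MCF10 (6.68%) and none rose in either line. The list medians were -2.02 in MDA-MB-231 and -0.80 in MCF10. The line difference itself passed in 6, MCM4, MCM6, MCM10, RFC4, POLA1 and POLE2, all below 0 (3.7% of all genes), and its median over the 33 genes was -1.19. With the DMSO arrays alone as controls it passed in none of the 33. The MDA-MB-231 count was 17 without its DMSO replicate 1 and 18 without its Untreated array. The MCF10 count was 3 without its IC50 array, 2 without its DMSO array and 0 without its Untreated array. The count of line differences was 3 without MDA-MB-231 DMSO replicate 1, 2 without the MCF10 IC20 array and 10 without the MCF10 IC50 array.

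MCM6, a subunit of the replicative helicase, read 7.58, 6.79, 6.49 and 6.44 in MDA-MB-231 under DZH_2 and 9.63, 9.08 and 9.54 in controls. In MCF10 it read 4.91 and 5.05 under DZH_2 and 5.54 and 5.02 in controls. It fell by 2.59 in MDA-MB-231 (line difference -2.29 ± 0.46, adjusted p = 0.010, limma), and all MCF10 arrays lay below the negative control level, where no fall could be measured. The same floor held for MCM10, POLA1 and POLE2, with MCF10 control means of 4.90, 5.22 and 5.47. RFC4, a clamp loader subunit, was measured in both lines. It read 10.004, 9.10, 9.65 and 9.52 against 11.51, 11.30 and 11.43 in MDA-MB-231, and 9.04 and 9.07 against 8.89 and 9.12 in MCF10. It fell by 1.85 in MDA-MB-231 and its change in MCF10 was 0.05 (line difference -1.90 ± 0.37, adjusted p = 0.0089, limma). MCM4, another helicase subunit, had MCF10 controls of 7.72 and 8.01 and a line difference of -2.91 (adjusted p = 0.018), not called without the MCF10 IC20 array or without the MCF10 DMSO array. XRCC2, a recombination protein and no member of the list, fell by 2.99 in MDA-MB-231 (line difference -2.82, adjusted p = 0.0054), with MCF10 controls again at the floor, 6.28 and 5.90.

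The deepest shared falls were cell cycle genes as well. By the smaller of the 2 changes they were H2BC14, KIF15, MCM3, MYBL2, NDC80, RRM2, TK1 and TYMS. RRM2, the small subunit of ribonucleotide reductase, read 10.50, 7.81, 10.45 and 8.47 under DZH_2 in MDA-MB-231 (IC20 replicates 1 and 2, then IC50 replicates 1 and 2) and 11.53, 11.87 and 12.06 in controls. In MCF10 it read 7.40 and 5.76 against 9.36 and 9.82. The groups did not overlap, but in MDA-MB-231 the arrays numbered 2 were lower than those numbered 1 at both doses, and the doses themselves lay closer together. RRM2 fell by 2.51 and 3.01 (line difference 0.50 ± 0.94, adjusted p = 0.81, limma). MYBL2, a factor for mitotic genes, fell by 2.25 and 3.38 (line difference 1.13 ± 0.83, adjusted p = 0.47). H2BC14, a replication-dependent histone whose family members are near-identical, fell by 2.96 and 5.71 (line difference 2.75, adjusted p = 0.029), and is uncertain where probes are shared by the family. Its line difference was not called without any 1 of MDA-MB-231 DMSO replicates 1 and 2 and MCF10 IC50 and DMSO. KIF15, a mitotic kinesin, lay below the negative control level on all MCF10 arrays, so its fall there has no firm size. The MDA-MB-231 fall of RRM2, TYMS, TK1 and MYBL2 was lost without any 1 of its IC50 replicate 2, DMSO replicate 1 and Untreated arrays (for RRM2 and TK1 also its DMSO replicate 2, and for TK1 its IC20 replicate 2), and the MCF10 fall of RRM2, TYMS and TK1 without any 1 of the MCF10 IC50, DMSO and Untreated arrays. The MDA-MB-231 fall of MCM3 was lost without DMSO replicate 1, and its MCF10 fall without any 1 of MDA-MB-231 IC20 replicate 2, DMSO replicates 1 and 2 and Untreated and the MCF10 IC50, DMSO and Untreated arrays.

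Several genes that fell strongly in MCF10 lay near the negative controls in MDA-MB-231. SCNN1G, a subunit of the epithelial sodium channel, had the largest line difference measured among the named genes. It read 4.85 and 5.36 under DZH_2 in MCF10 and 12.80 and 12.54 in the controls, while the MDA-MB-231 arrays lay between 2.89 and 3.46 in both conditions. It fell by 7.56 ± 0.29 in MCF10 (189-fold, a size that the floor limits), and the line difference was 7.63 ± 0.36 (adjusted p = 5.7e-08, limma). SCNN1B, a second subunit of the channel, read 6.59 and 6.68 against 10.93 and 11.20 in MCF10 and fell by 4.43. RBP4, a retinol carrier, read 5.44 and 5.22 against 9.21 and 9.84 and fell by 4.20. ACKR3, an atypical chemokine receptor that takes up CXCL12, read 8.42 and 7.74 against 11.81 and 11.94 and fell by 3.80. In MDA-MB-231 the control means of these genes, SCNN1G first, were 3.16, 5.96, 4.53 and 4.62, all below the negative control level, where a fall could not be measured.

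KCNIP3, a calcium-binding transcriptional repressor, and NAV1, a cytoskeletal protein, were also measured in MDA-MB-231. KCNIP3 read 8.89 and 9.44 under DZH_2 and 12.69 and 13.50 in controls of MCF10, and 6.79 to 7.90 over all MDA-MB-231 arrays. It fell by 3.92 in MCF10 (line difference 3.88 ± 0.46, adjusted p = 7e-04, limma). NAV1 read 8.87 and 10.48 against 12.73 and 12.58 in MCF10 and fell by 2.98, and in MDA-MB-231 its change was 0.58 from a control mean of 10.18 (line difference 3.55 ± 0.50, adjusted p = 0.0019). All of SCNN1G, SCNN1B, RBP4, ACKR3, KCNIP3 and NAV1 were stable.

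Markers of cell type moved along with these falls in MCF10. Of 9 measured markers of mammary basal epithelium, 4 fell and 1 rose in MCF10 (6.68% and 5.72% of all genes), and 3 had a line difference above 0 (3.54%). S100A2, a calcium-binding protein of basal cells, fell by 3.85 from 14.85, and KRT5, a basal keratin, fell by 3.54 from 9.29. TRIM29, the remaining one of the 3, fell by 2.00, and its line difference was not called without the MCF10 Untreated array. The log2 of the summed level of the list was 16.05 to 16.28 in MCF10 controls and 14.17 to 14.40 under DZH_2. Of 14 fibroblast markers, 5 fell and 1 rose in MCF10 (the same shares of all genes), and the line difference was above 0 in 5 (DCN, FBLN1, MMP2, PDGFRB and TWIST2) and below 0 in 1 (FAP). The summed level was 15.33 to 15.37 in MCF10 controls, 14.26 to 14.31 under DZH_2 and 10.43 to 10.61 in MDA-MB-231. TWIST2, a mesenchymal transcription factor, fell by 3.39 and FAP, a fibroblast protease, rose by 2.36. The fibroblast count of falls was 3 without the MCF10 IC50, DMSO or Untreated array. The 5 line differences above 0 were 3 without MDA-MB-231 DMSO replicate 1 or the MCF10 Untreated array. In MDA-MB-231 controls, 6 of the 9 basal and 11 of the 14 fibroblast markers lay below 6.103. KRT5 (4.51) and TWIST2 (5.18) were among them, and a fall of such genes could not be measured there. Only 3 members of each list were above that level in both lines, and 1 of each 3 had a line difference above 0. The part of cell identity or mixture in the line difference was not tested. In bulk RNA, fewer cells of a type and less RNA per cell cannot be told apart.

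Some immediate early genes moved in opposite directions in the lines. Of 19 measured, 6 rose and 1 fell in MDA-MB-231 (2.19% and 3.44% of all genes), and 4 rose and 3 fell in MCF10 (5.72% and 6.68%). The line difference was above 0 in FOSL1, FOSL2, JUNB, IER3 and DUSP1 (3.54% of all genes) and below 0 in DUSP4 (3.7%). Of these, DUSP4 was called on leaving out an array only without the MCF10 IC50 array, and FOSL2 and IER3 were each lost without any 1 of 7 arrays, among them both MDA-MB-231 DMSO arrays and the MCF10 IC20, DMSO and Untreated arrays. DUSP1, a phosphatase that switches off MAP kinases, read 9.60, 9.01, 9.14 and 9.32 under DZH_2 and 7.54, 7.52 and 6.80 in controls of MDA-MB-231. The MCF10 arrays gave 15.36 and 15.74 under DZH_2 and 16.81 and 16.97 in controls. The groups did not overlap in either line and moved toward each other, with a rise of 1.98 in MDA-MB-231 (adjusted p = 3.8e-04) and a fall of 1.34 in MCF10 (adjusted p = 0.013). Its line difference of 3.32 ± 0.39 (adjusted p = 7e-04, limma) was stable, but the fall in MCF10 was not called without the MCF10 IC20 array or without the MCF10 Untreated array. Genes at or above 12 in MCF10 had a median change of -0.40 there, against -0.05 in MDA-MB-231, and under a loess fit that removes this trend the MCF10 fall of DUSP1 was not called while its line difference was. ZFP36, which destabilises AU-rich mRNAs and was chosen after its values were seen, read 10.36, 10.32, 10.04 and 10.89 against 8.48, 8.53 and 9.10 in MDA-MB-231, and 12.98 and 12.76 against 14.04 and 13.95 in MCF10. It rose by 1.70 and fell by 1.13 (line difference 2.82 ± 0.39, adjusted p = 0.0016), and its fall was not called without any 1 of the 4 MCF10 arrays.

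JUNB, an AP-1 subunit, rose by 1.73 in MDA-MB-231 and its change in MCF10 was -0.34 (line difference 2.07 ± 0.37, adjusted p = 0.0064, limma). JUND, its relative, rose by 1.73 and 2.21, and no line difference was detected (-0.48 ± 0.42, adjusted p = 0.56). FOSL1, a Fos-related subunit, fell by 1.46 in MCF10 and its change in MDA-MB-231 was 0.42 (line difference 1.87, adjusted p = 0.015), which was not called without the MCF10 DMSO array. DUSP6, the ERK phosphatase, fell by 0.87 in MDA-MB-231 and 1.06 in MCF10. The former fall was not called without any 1 of MDA-MB-231 IC20 replicate 1, IC50 replicates 1 and 2, DMSO replicates 1 and 2 and Untreated. The latter was not called without any 1 of MDA-MB-231 DMSO replicates 1 and 2 and Untreated and MCF10 IC20, DMSO and Untreated. The count of 5 was 3 without either MDA-MB-231 DMSO array, without the MCF10 IC20 array or without the MCF10 Untreated array, and 2 without the MCF10 DMSO array.

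Among the named genes that rose in MCF10, RBPJ and USP47 started lower there than in MDA-MB-231. RBPJ, the DNA-binding factor of Notch signalling, read 8.66 and 8.14 under DZH_2 and 5.63 and 4.96 in MCF10 controls. In MDA-MB-231 it read 10.71, 10.87, 9.92 and 10.49 against 11.36, 10.99 and 11.28. It rose by 3.11 in MCF10 and its change in MDA-MB-231 was -0.71 (line difference -3.82 ± 0.43, adjusted p = 6.2e-04, limma). USP47, a deubiquitinase, read 10.30 and 9.46 against 7.62 and 7.78 in MCF10, where it rose by 2.18, and it fell by 1.15 in MDA-MB-231 (line difference -3.32 ± 0.45, adjusted p = 0.0014). That fall was not called without any 1 of MDA-MB-231 IC20 replicate 2, IC50 replicates 1 and 2, DMSO replicates 1 and 2 and Untreated. STC2, a secreted glycoprotein induced by stress, started higher in MCF10. It read 12.43 and 12.68 against 9.61 and 10.15 in MCF10, and lay between 5.43 and 6.99 in MDA-MB-231. It rose by 2.67 in MCF10 (line difference -2.98 ± 0.51, adjusted p = 0.0049). These 3 line differences were stable.

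Some amino acid genes driven by ATF4 varied widely between arrays. Of 21 measured, 2 rose and 2 fell in MDA-MB-231 (2.19% and 3.44% of all genes), 3 rose in MCF10 (5.72%), and the line difference was above 0 in 1, DDIT4, and below 0 in 3, PSAT1, STC2 and SLC7A11 (3.54% and 3.7%). With the IC50 arrays alone, 9 rose in MCF10 and 9 had a line difference below 0. The count of 3 was 6 without MDA-MB-231 IC20 replicate 2 or the MCF10 IC20 array, and 1 without either MDA-MB-231 DMSO array, the MCF10 DMSO array or the MCF10 Untreated array. PSAT1, an enzyme of serine synthesis, read 11.29, 14.65, 11.62 and 14.09 under DZH_2 in MDA-MB-231, where replicates 1 were far below replicates 2 at both doses, and 15.58, 15.64 and 15.42 in the controls. MCF10 values were 11.15 and 12.49 against 9.74 and 10.14. Its line difference of -4.51 ± 1.07 (adjusted p = 0.023, limma) was not called without any 1 of MDA-MB-231 DMSO replicates 1 and 2 and MCF10 DMSO and Untreated. ASNS, asparagine synthetase, split in the same way, at 9.40, 14.70, 10.26 and 13.26 against controls of 14.96 to 15.20, and its line difference of -4.03 ± 1.60 did not pass (adjusted p = 0.14). SLC7A11, the cystine carrier, read 8.36 and 12.05 in the MCF10 arrays under DZH_2, a gap wider than that in any other arm, and its line difference of -3.58 ± 0.97 (adjusted p = 0.039) was called without either MCF10 array under DZH_2 and was lost without any 1 of the other 9 arrays. SEL1L3, which is no member of this group, had a line difference of -3.67 (adjusted p = 0.025), lost without any 1 of MDA-MB-231 DMSO replicates 1 and 2 and MCF10 IC50 and Untreated. E2F8, a repressor in the E2F family, had one of -3.39 (adjusted p = 0.021), lost without any 1 of MDA-MB-231 Untreated and MCF10 IC20, DMSO and Untreated.

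Some interferon-induced genes rose in MCF10, at low levels. Of 20 measured, 6 rose in MCF10 (5.72% of all genes rose) and none passed in MDA-MB-231 (5.63% of all genes passed). The line difference was called in IFIT1, ISG15 and OAS3, all below 0 (3.7% of all genes). ISG15, a ubiquitin-like protein, read 8.29 and 8.29 against 7.22 and 6.88 in MCF10, and 6.96 to 7.35 over all MDA-MB-231 arrays (line difference -1.19 ± 0.33, adjusted p = 0.043, limma). IFIT1 rose by 2.98 in MCF10 from controls of 3.41 and 3.49, far below the negative control level. None of the 3 line differences remained without MDA-MB-231 DMSO replicate 1, DMSO replicate 2 or the Untreated array, or without the MCF10 DMSO or Untreated array. The 6 rises were 2 without the MCF10 DMSO array or without the MCF10 Untreated array.

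Genes that rose in MDA-MB-231 alone formed the smallest of the 1-line classes. SLC14A1, a urea transporter, read 11.995, 12.43, 11.91 and 12.67 under DZH_2 against 9.38, 9.85 and 8.62 in MDA-MB-231, and 3.75 and 5.65 against 5.44 and 5.23 in MCF10. It rose by 2.97 in MDA-MB-231, while MCF10 stayed below the negative control level (line difference 3.60 ± 0.64, adjusted p = 0.0061, limma). IL6, the inflammatory cytokine, rose by 2.04 in MDA-MB-231, to 8.89, 8.63, 9.43 and 9.41 from 7.30, 6.84 and 7.01, with MCF10 at the floor (line difference 1.66, adjusted p = 0.029, not called without any 1 of MDA-MB-231 IC50 replicates 1 and 2, DMSO replicates 1 and 2 and Untreated and MCF10 IC20 and Untreated). LIPG, endothelial lipase, rose in both lines, by 3.93 in MDA-MB-231 and 2.67 in MCF10 (line difference 1.26 ± 0.74, adjusted p = 0.34, limma). Its MCF10 rise was not called without the MCF10 Untreated array, with array weights or with values floored at the negative control level.

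**Figure D4:**
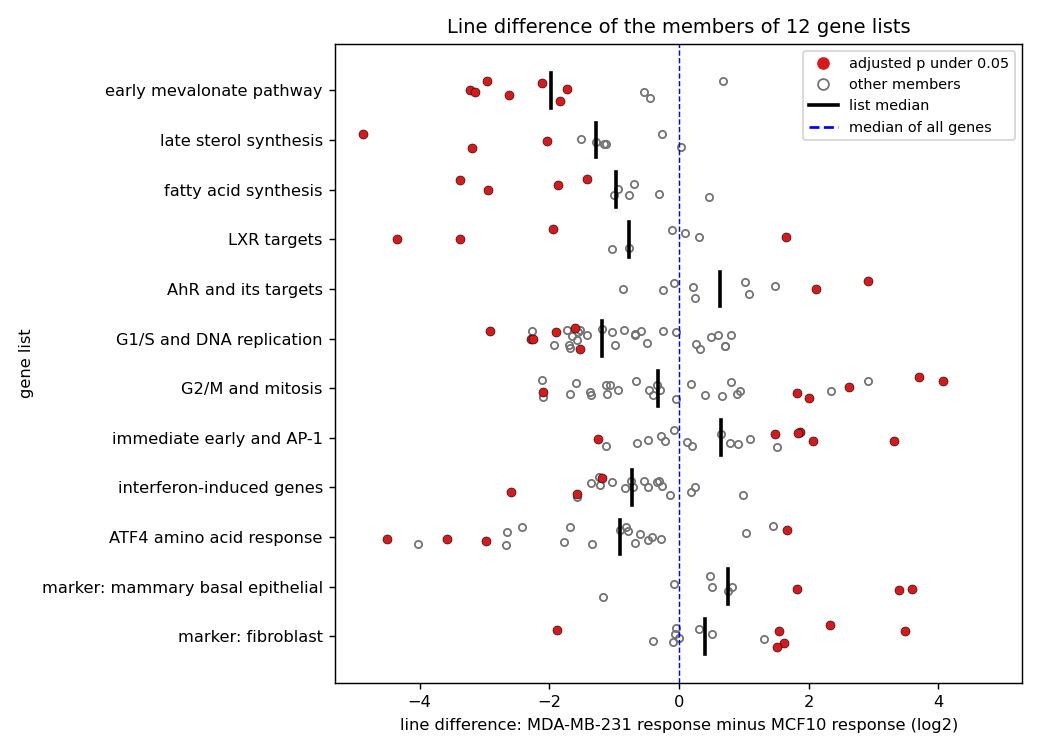
Line difference (x axis, log2) of every measured member of 12 gene lists (y axis); filled points passed an adjusted p of 0.05, black bars are list medians and the dashed line is the median of all genes. The early mevalonate and late sterol genes that passed lie at negative values, the replication genes that passed do too, and the mitotic and immediate early genes that passed lie on both sides.

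The 1281 line-dependent genes were sorted by the line in which a change was called. A change in MCF10 alone was called for 381 rises and 481 falls, and a change in MDA-MB-231 alone for 65 rises and 148 falls. Both lines changed in the same direction in 25, and in all of these the larger change was in MCF10. Opposite changes were called in 38, with a rise in MDA-MB-231 in 11 and a fall in 27, and in 143 neither line passed alone. The threshold puts genes with changes just short of it in the other class, so these classes describe calls and not separate behaviours.

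Levels in control cells differed between the classes, and these levels enter the line difference through the same arrays. Genes called for a fall in MDA-MB-231 alone had median control levels of 10.13 in MDA-MB-231 and 6.76 in MCF10, and 53 of the 148 lay near the negative controls in MCF10 controls. Genes called for a rise in MCF10 alone had median control levels of 9.71 in MDA-MB-231 and 7.41 in MCF10. Genes called for a fall in MCF10 alone had medians of 9.79 and 10.99, and 81 of the 481 lay near the negative controls in MDA-MB-231 controls. Genes called for a rise in MDA-MB-231 alone had medians of 9.28 and 9.67. Over all genes the medians were 7.08 and 6.64. Near the negative controls were 10.2% of line-dependent genes in MDA-MB-231 controls and 16.6% in MCF10 controls, against 40.2% and 41.3% of all genes. Basal levels themselves differed between the lines in 8255 genes (46.7%), so a difference in starting level was common with or without a line difference. Changes in MCF10 also went with level over all genes. Their median was 0.08 for genes from 6.103 to 9, -0.11 from 9 to 12 and -0.40 at or above 12. In MDA-MB-231 these medians were 0.02, -0.04 and -0.05. The part of this trend in the control levels of the classes was not tested.

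**Figure D5:**
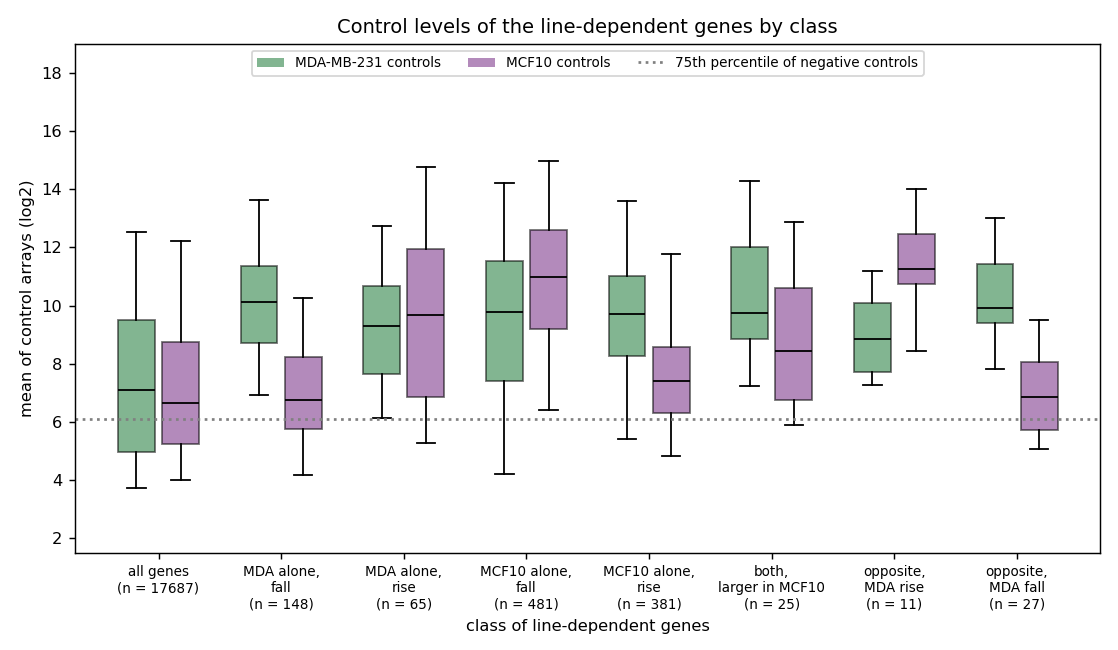
Mean of the control arrays (y axis, log2) in MDA-MB-231 and in MCF10 for the line-dependent genes, by the class of their calls (x axis), with all genes at the left; boxes span the quartiles with the median as a line, and whiskers run from the 5th to the 95th percentile. Genes that fell in MDA-MB-231 alone sit high in MDA-MB-231 controls (median 10.13, all genes 7.08). In MCF10 controls they sit near the median of all genes (6.76, all genes 6.64). Genes that fell in MCF10 alone sit high in MCF10 controls (median 10.99).

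Among the shared genes the change was more often larger in MCF10. Of the 208 genes called in both lines in the same direction, the larger change was in MCF10 in 154, which were 88 of the 113 rises and 66 of the 95 falls. The SE was larger in MCF10 (for HMGCS1 0.34 against 0.26), so a gene needed a larger change there to be called. The part of this selection in the 154 was not tested. A line difference was also called in 25 of the 208, 16 rises and 9 falls. The median changes of the 113 rises were 1.33 in MDA-MB-231 and 1.65 in MCF10, and those of the 95 falls were -1.30 and -1.66. By the smaller of the 2 changes, the highest shared rises were CYP1B1, DHCR7, FASN, HMGCS1, IDI1, INSIG1, LIPG and MSMO1. Of these 8, only HMGCS1 and IDI1 had a called line difference, and 6 of the 8 belong to sterol and fatty acid synthesis or its control.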

How the data were processed

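Total RNA was extracted with Trizol and labelled with the GeneChip WT PLUS kit, per the labels' protocols. The authors deposited log2 expression values, 1 per probe set and array. Neither the labels nor the file headers state the background correction, summarisation or normalization. Of 24351 probe sets, 17709 had 1 gene symbol in the platform annotation. For the 20 genes with several probe sets, only the probe set with the highest mean over all 17 arrays was kept, which left 17687 genes. No filter on low values was applied, and a value is called near the negative controls below 6.103, the 75th percentile of 612 negative control probe sets over the 11 arrays.

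Means of 4 arms (DZH_2 and controls in each line, with doses pooled and with DMSO and Untreated pooled) were fitted to 11 arrays with limma 3.58.1 in R 4.3.3 (lmFit and eBayes, 7 residual degrees of freedom). The line difference, the change in each line and the basal difference were contrasts of that fit, with Benjamini-Hochberg adjustment over all 17687 genes and a threshold of 0.05. A gene is shared when both lines pass in the same direction. The number of arrays limits the precision. In 20 simulated sets with 200 planted line differences, 4.5%, 59.1%, 87.7% and 96.4% of those of log2 size 1, 2, 3 and 4 were recovered. Line differences near 1 were thus mostly out of reach. In the simulation 5.31% of calls were false, with independent normal noise of 1 spread per gene in all arms. The real arms differed in spread (median SD 0.33 in MCF10 under DZH_2, 0.21 in MDA-MB-231 controls), so the false share of the real calls is not known from it.

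Named genes were the 10 largest line differences each way whose treated and control arrays did not overlap in the line with the larger change, the 8 highest shared rises and 8 deepest shared falls by the smaller change, the 4 largest changes each way in each line, and members of the gene lists. The comparison and the lists were chosen with earlier results of these data known. The main fit did not pair arrays by replicate number. Across genes, the difference between MDA-MB-231 replicates 1 and 2 had a correlation of 0.30 between DZH_2 IC20 and IC50. It was 0.07 between IC20 and DMSO and -0.03 between IC50 and DMSO. Replicate numbers thus went together in part among the treated arrays, and the labels do not say what they share. Alternatives changed the controls, the dose, the normalization, a floor or filter at the negative controls, the variance model, the arrays in the fit and the replicate block, and left out each array in turn. A cyclic loess fit within each line was added after the data were seen. Where 1 array of a MCF10 arm was left out, the lone array was assumed to vary like the others. The 6 Maraviroc and ethanol arrays entered 1 alternative only. Promoters came from RefSeq (GRCh38.p14). Figures were drawn with matplotlib 3.10.9 in Python 3.11.15.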

Additional observations from a re-analysis of the deposited data

Results flagged for a closer look

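The line difference passed its test (limma, Benjamini-Hochberg adjusted over all genes) with all 11 arrays for each gene given here, and for some of them it did not pass on fewer arrays. Among sterol genes the line differences (log2, MDA-MB-231 minus MCF10) were -2.96 for HMGCS1, -3.22 for ACAT2, -2.61 for MVD, -3.15 for IDI1, -2.11 for FDPS, -1.73 for SQLE, -1.83 for LSS, -4.88 for CYP51A1, -3.20 for SC5D, -2.03 for EBP and -2.17 for TMEM97. Among fatty acid and LXR genes they were -3.37 for SCD, -2.94 for ELOVL6, -1.87 for FADS2, -1.42 for ELOVL5, -4.35 for ABCG1, -1.95 for ABCA1 and 1.66 for LPCAT3. Among AhR targets they were 2.92 for CYP1A1 and 2.12 for ALDH3A1. Among mitotic and histone genes they were 4.08 for CDC20, 3.71 for FOXM1, 2.63 for UBE2C, 1.81 for CENPA, 2.01 for CDC25C, -2.09 for PRC1 and 2.75 for H2BC14. Among replication and repair genes they were -2.91 for MCM4, -2.29 for MCM6, -1.90 for RFC4, -1.60 for POLA1, -1.53 for MCM10, -2.24 for POLE2, -2.82 for XRCC2 and -3.39 for E2F8. Among genes that fell in MCF10 from levels above those of MDA-MB-231 they were 7.63 for SCNN1G, 4.01 for SCNN1B, 4.52 for RBP4, 3.83 for ACKR3, 3.88 for KCNIP3 and 3.55 for NAV1. Among markers they were 3.60 for S100A2, 3.40 for KRT5, 1.82 for TRIM29, 3.48 for TWIST2, 1.54 for DCN, 1.61 for FBLN1, 1.51 for MMP2, 2.32 for PDGFRB and -1.88 for FAP. Among immediate early and inflammatory genes they were 3.32 for DUSP1, 2.07 for JUNB, 1.87 for FOSL1, 1.49 for FOSL2, 1.84 for IER3, -1.24 for DUSP4, 2.82 for ZFP36 and 1.66 for IL6. Among stress and interferon genes they were -4.51 for PSAT1, -3.58 for SLC7A11, -2.98 for STC2, -2.59 for IFIT1, -1.19 for ISG15, -1.57 for OAS3, 1.66 for DDIT4, -2.56 for HSP90AA1 and -1.93 for DNAJA1. Among targets of YAP and TEAD they were -2.44 for ANKRD1, -1.92 for F3, -1.85 for CRIM1 and -1.86 for GADD45A, and among lysosomal genes 3.04 for CTSD, 1.67 for GLA and 1.18 for PSAP. The others were 3.60 for SLC14A1, -3.82 for RBPJ, -3.32 for USP47 and -3.67 for SEL1L3. The call was lost on leaving out at least 1 array for ABCA1, LPCAT3, ELOVL5, ALDH3A1, CDC25C, PRC1, H2BC14, MCM4, POLA1, MCM10, POLE2, E2F8, TRIM29, DCN, MMP2, FOSL1, FOSL2, IER3, DUSP4, IL6, PSAT1, SLC7A11, IFIT1, ISG15, OAS3, DDIT4, DNAJA1, ANKRD1, GADD45A, CTSD, GLA, PSAP and SEL1L3, and the sign of IFIT1 turned in 1 fit. With the DMSO arrays alone as controls it was also lost for SQLE, EBP, FADS2, CENPA, MCM6, RFC4, XRCC2, FBLN1, FAP, CRIM1 and HSP90AA1, and for PDGFRB when values were floored at the negative control level. Many of these genes lay near or below the negative controls in 1 line. In MCF10 they included ABCG1, ABCA1, CYP1A1, SLC14A1, MCM6, MCM10, POLA1 and POLE2. In MDA-MB-231 they included SCNN1G, SCNN1B, RBP4, ACKR3, KRT5 and TWIST2.

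A single array stood apart among the 4 MDA-MB-231 arrays under DZH_2 for 5 genes, where the gap to the nearest array divided by the range of the group exceeded Dixon's 95% critical value for 4 values. The ratio was 0.854 for MVD, 0.840 for EBP, 0.855 for STC2, 0.841 for POLA1 and 0.957 for ANKRD36C. Chance flags about 1 in 20 groups whose arrays are all alike. These 4 arrays held 2 doses, and many genes were looked at, so some of the flags may be chance. ANKRD36C, which fell by 3.04 in MDA-MB-231, read 11.72 on the IC20 replicate 1 array and 10.14 to 10.21 on the others. EBP was lowest on IC20 replicate 2, and MVD and STC2 were lowest on IC20 replicate 1, the array where POLA1 was highest.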

How the results depend on the processing

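The counts of calls depended on the arrays used as controls and doses. With the DMSO arrays alone as controls, the line difference was called in 354 genes, the MDA-MB-231 change in 462, the MCF10 change in 847 and the shared response in 70. With the IC20 arrays alone, the counts were 1948 for the line difference, 555 for MDA-MB-231 and 109 for the shared response. With array weights they were 569, 2677 for MDA-MB-231 and 629 for MCF10. Leaving out each array in turn gave 496 to 2515 line differences, 306 to 1514 MDA-MB-231 calls, 1175 to 3238 MCF10 calls, 95 to 298 shared genes and 6616 to 8987 basal differences. With the replicate block the counts were 1252, 992, 2153, 215 and 7906, in the same order, and no count left 1.5 times the main one. Centring on the median gave 6904 basal differences above and 3768 below 0, and quantile normalization 4242 and 3782, against 3393 and 4862. All other totals of calls over all genes stayed within 1.5 times the main total, but their splits moved. The line difference was above 0 in 338 and below in 563 genes with the IC50 arrays alone, and in 1132 and 816 with the IC20 arrays alone. Flooring values at the negative control level gave 101 shared rises and 50 shared falls. Genes named by rule, picked for large changes, gave 569 values, counting only the lowest and highest value per gene from leaving out an array. Of these, 522 kept direction and side of the threshold, 47 lost the threshold and none reversed. Over all alternatives some lost it more often: SLC7A11 (line difference) and TK1 (shared fall) were each called in 12 of 25. Among other genes in the text, the line difference of IFIT1 turned sign in 1 fit. The causes were not tested. Genes near the negative controls in 1 line have no measurable fall there, and differences of log2 size 1 were rarely recovered in simulation.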

Other observations

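Among other gene lists, targets of YAP and TEAD, which respond to cell shape and crowding, had line differences in 4 of 16 measured genes, all below 0 (3.7% of all genes): ANKRD1, F3, CRIM1 and GADD45A. In MCF10, 4 of the 16 rose and 1 fell (5.72% and 6.68% of all genes), and in MDA-MB-231 2 fell (3.44%). F3, the tissue factor that starts clotting, read 8.97 and 9.18 under DZH_2 against 7.54 and 7.88 in MCF10, and its line difference of -1.92 ± 0.37 (adjusted p = 0.0086, limma) was stable. That of ANKRD1 was -2.44 (adjusted p = 0.029) and was lost without any 1 of MDA-MB-231 DMSO replicates 1 and 2 and MCF10 IC20, DMSO and Untreated. GADD45A was lost without any 1 of 6 arrays, and CRIM1 with the DMSO arrays alone as controls.

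Of 12 heat shock genes, 4 rose in MCF10 (5.72% of all genes rose) and 1 fell in MDA-MB-231 (3.44% fell), and 2 had a line difference below 0 (3.7%). HSP90AA1, a cytosolic chaperone, rose by 2.14 in MCF10 (line difference -2.56 ± 0.50, adjusted p = 0.0095, limma), and DNAJA1, a co-chaperone, was lost without any 1 of 8 arrays. Of 19 lysosomal genes, 7 rose in MDA-MB-231 (2.19% of all genes) and 6 in MCF10 (5.72%), 5 of them in both (0.639%), and 3 had a line difference above 0 (3.54%). CTSD, the protease cathepsin D, rose by 2.48 in MDA-MB-231 (line difference 3.04 ± 0.65, adjusted p = 0.014), and that difference was lost without the MCF10 Untreated array. GLA was lost without any 1 of MDA-MB-231 DMSO replicate 2 and MCF10 IC20, DMSO and Untreated, and PSAP without any 1 of 10 arrays. NPC1, which exports cholesterol from lysosomes, rose by 2.35 in MDA-MB-231 and 2.57 in MCF10.

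Of 17 measured genes of the unfolded protein response, none had a called line difference, and 1 rose in each line. Of 20 genes of glycolysis and hypoxia, none had a called line difference, and 3 rose in both lines. Of 16 NRF2 targets, 6 rose in MDA-MB-231, 8 rose in MCF10 and 5 rose in both, with 2 line differences below 0. Of 14 p53 targets, 2 rose in each line and 1 in both, with 1 line difference above 0. Of 18 autophagy genes, the line difference was above 0 in 1 and below 0 in 2. Over all genes, 2.19% rose in MDA-MB-231, 5.72% in MCF10 and 0.639% in both. The line difference was above 0 in 3.54% of all genes and below 0 in 3.7%.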
